A study of Sus scrofa with 19 samples.

Results

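The slow fibre contractile genes are the genes of the myosin, troponin and tropomyosin subunits that build the sarcomere of slow-twitch (type I) muscle fibres, listed together with myoglobin. They were taken as all probe sets of the porcine Affymetrix array whose platform annotation gives exactly 1 gene symbol, that symbol being *MYH7*, *MYL2*, *MYL3*, *TNNT1*, *TNNI1*, *TNNC1*, *TPM3* or *MB*. A probe set is a group of short probes that read 1 transcript. By this rule 9 of the 23935 probe sets analysed were members, and they covered 7 of the 8 genes: 1 probe set for each of *MYH7*, *MYL2*, *MYL3*, *TNNT1*, *TNNI1* and *TNNC1*, and 3 for *TPM3*. No probe set carried the symbol *MB*, and myoglobin was not analysed here.

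The RNA came from longissimus dorsi (LD), which the labels call the longissimus thoracis et lumborum muscle. It was taken from 19 castrated male Duroc pigs of a commercial line that were slaughtered at 190 days of age, with 1 array and 1 animal per sample. The pigs had been picked from the ends of a ranking of 350 animals on 13 traits of fat deposition and fat composition, giving 10 pigs of high fattening (LD HIGH) and 9 pigs of low fattening (LD LOW). Both groups ate the same kind of commercial diet and neither was treated. The study population was made of half-sib families, and the labels give no family, batch or scan date per pig. The groups therefore differ in a composite of fat traits, and carcass, plasma and muscle fat cannot be told apart within it. Values are log2 signals as deposited, so 1 unit is a doubling of the signal. Signal levels are not compared between probe sets as amounts of transcript, because their probes bind with different strength. Spreads, slopes and differences set side by side below are those of array signal.

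A slow fibre contracts slowly, resists fatigue and is rich in mitochondria, and it uses its own set of sarcomere proteins: the slow myosin heavy chain with its light chains drives contraction, while slow troponin and the slow tropomyosin switch it on in response to calcium. Longissimus dorsi of the pig is a muscle of mostly fast, glycolytic fibres in which slow fibres form a minority, so the signal of these genes in whole muscle reflects both how much of the tissue is slow fibre and how much of each transcript a slow fibre holds. In such bulk samples fewer slow fibres and less RNA per slow fibre cannot be told apart.

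The 19 arrays were alike in overall signal. The median signal of an array lay between 3.45 and 3.60 in LD HIGH and between 3.45 and 3.57 in LD LOW, and the lowest r between a pair of arrays was 0.970. The level of background was taken from 17 tag controls, which match no pig gene and averaged 2.11. All 8 measured general skeletal muscle markers exceeded every tag control on all 19 arrays, among them *CKM*, the muscle creatine kinase, at 15.33 ± 0.069 in LD HIGH (SD, n = 10) and 15.35 ± 0.075 in LD LOW (SD, n = 9). *MYH7*, *MYL2*, *MYL3* and *TNNC1* are also the genes of heart muscle, and of the 5 measured cardiac markers *TNNI3* (cardiac troponin I, mean 4.97) and *MYL4* (an atrial and embryonic light chain, mean 3.75) exceeded the tag controls on all 19 arrays, *NPPB* on 7, and *NPPA* (atrial natriuretic peptide) and *GATA4* on 0. All 9 member probe sets exceeded them on all 19.

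*MYH7*, which encodes the slow myosin heavy chain (chromosome 7, 75650841 to 75672908 on Sscrofa11.1), had log2 signals of 14.61 (lowest), 14.79 (median) and 14.87 (highest) in LD HIGH, against 14.59, 14.91 and 15.09 in LD LOW. The LD HIGH pigs lay inside the range of the LD LOW pigs, and 5 of the 9 LD LOW pigs were above every LD HIGH pig while 1 was below every one of them. The mean was 14.77 ± 0.092 in LD HIGH (SD, n = 10) and 14.86 ± 0.15 in LD LOW (SD, n = 9), a difference of -0.091 (SE 0.058, 95% interval -0.21 to 0.031). In limma, a linear model per probe set with pooled variance estimates, the unadjusted p was 0.135 and the p adjusted over all 23935 probe sets was 0.993.

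*MYL2*, the regulatory light chain of slow and ventricular myosin (chromosome 14, 32205953 to 32213848), had 14.77, 14.88 and 15.09 in LD HIGH as lowest, median and highest signal, against 14.59, 14.90 and 15.12 in LD LOW. The groups overlapped almost fully, with a single LD LOW pig at each end of the whole range. Its difference was 0.012 (SE 0.059, 95% interval -0.11 to 0.14, adjusted p = 0.993 in limma). *MYL3*, the essential light chain of the same myosin (chromosome 13, 29730271 to 29735616), was the most variable member. It had 11.77, 12.70 and 13.27 in LD HIGH, against 11.98, 12.98 and 13.85 in LD LOW. Here 2 LD HIGH pigs lay below every LD LOW pig and 2 LD LOW pigs above every LD HIGH pig, and the remaining 15 pigs overlapped. The mean was 12.61 ± 0.53 in LD HIGH and 12.91 ± 0.55 in LD LOW, a difference of -0.31 (SE 0.23, 95% interval -0.79 to 0.18, adjusted p = 0.993 in limma), which as a fold is 0.809 (0.579 to 1.13).

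The troponin complex has 3 subunits, and each of the slow ones had 1 probe set. *TNNT1*, the slow subunit that ties the complex to tropomyosin (chromosome 6, 59351445 to 59365584), had 13.72, 14.13 and 14.54 in LD HIGH as lowest, median and highest signal, against 14.01, 14.22 and 14.51 in LD LOW. Both the highest and the lowest pig were LD HIGH, and the LD LOW pigs lay between them. *TNNI1*, the slow inhibitory subunit (chromosome 10, 23788279 to 23800554), had 13.16, 13.42 and 13.88 in LD HIGH, against 13.27, 13.64 and 13.82 in LD LOW. Of the 10 LD HIGH pigs 2 were above every LD LOW pig and 1 was below every one, so that the LD HIGH values were the more spread out (SD 0.25, against 0.16 in LD LOW).

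*TNNC1*, the calcium-binding subunit shared by slow fibres and heart (chromosome 13, 34591571 to 34594320), had 13.62, 13.80 and 14.11 in LD HIGH, against 13.59, 13.78 and 14.09 in LD LOW. These groups could hardly be told from one another, with means of 13.80 in LD HIGH and 13.81 in LD LOW. The differences of the troponin genes were -0.099 (SE 0.091, 95% interval -0.29 to 0.091) for *TNNT1*, -0.091 (SE 0.096, -0.29 to 0.11) for *TNNI1* and -0.0029 (SE 0.076, -0.16 to 0.16) for *TNNC1*. Their adjusted p in limma was 0.993, 0.993 and 0.998.

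*TPM3* (chromosome 4, 95542329 to 95572946) encodes the slow skeletal muscle tropomyosin, and other transcripts of the same gene encode tropomyosins of non-muscle cells. Probe set 1 had 6.94, 7.64 and 8.54 in LD HIGH, against 6.81, 7.71 and 8.22 in LD LOW. Probe set 2, annotated to the same transcript record, had 6.70, 7.71 and 8.26 in LD HIGH, against 7.13, 7.70 and 8.24 in LD LOW. Probe set 3, designed on an expressed sequence tag, was near background, with 3.10, 3.17 and 3.69 in LD HIGH, against 2.65, 3.22 and 3.52 in LD LOW. The groups overlapped on all 3 probe sets, and the differences were -0.069 (95% interval -0.47 to 0.33), -0.027 (-0.40 to 0.35) and 0.068 (-0.15 to 0.28), each with an adjusted p of 0.993 in limma. Which *TPM3* transcripts each of them reads was not analysed here.

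**Figure D1:**
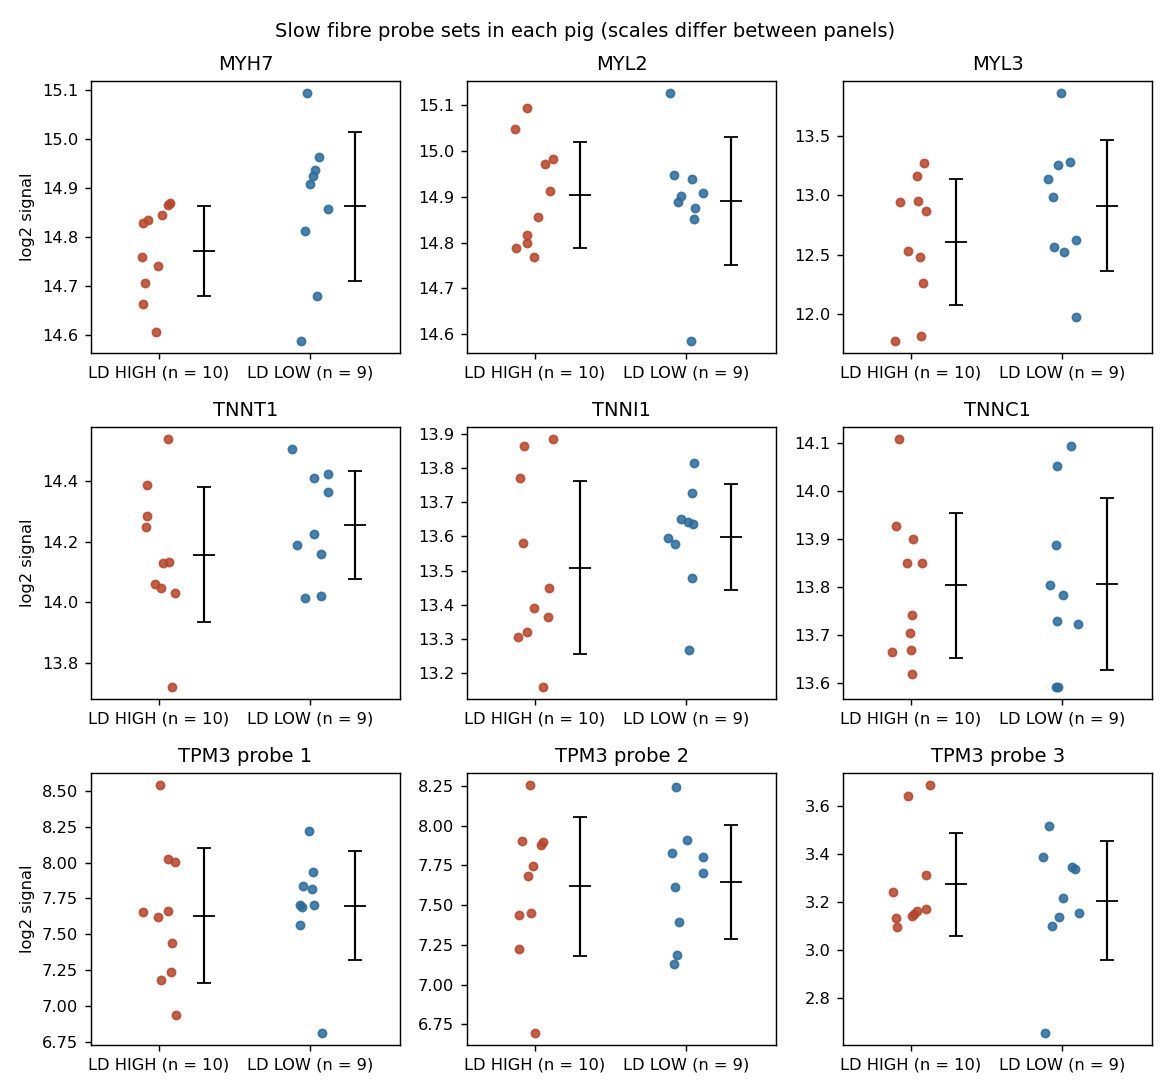
Log2 signal of each member probe set (y axis, own scale per panel) in every pig, with LD HIGH (n = 10, red points) left of LD LOW (n = 9, blue points) and the group mean ± SD beside the points (black bar). The groups overlap in every panel, and *MYL3* spreads over 2.08 log2 units between its lowest and highest pig while *MYH7* spreads over 0.51.

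Between the fattening groups 0 of the 9 member probe sets passed an adjusted p of 0.05, where 0 of all 23935 passed (0%), the smallest adjusted p being 0.993. At an unadjusted p under 0.05 the counts were 0 of 9 for the members and 842 of 23935 for all probe sets (3.52%). Of the members 7 of 9 were lower in LD HIGH, beside 58.6% of all probe sets, and the median member difference was -0.069, beside -0.0062 over all. The intervals leave room for differences in either direction. For *MYL3* they reach a 0.579-fold level in LD HIGH, while for *MYH7* they end at 0.863-fold and 1.02-fold and for *MYL2* at 0.926-fold and 1.1-fold. These are folds of array signal, and bright probe sets varied less on these arrays. The median SD was 0.134 at a mean of 14 to 15, against 0.264 at 12 to 13. The part of signal level in the intervals was not tested.

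**Figure D2:**
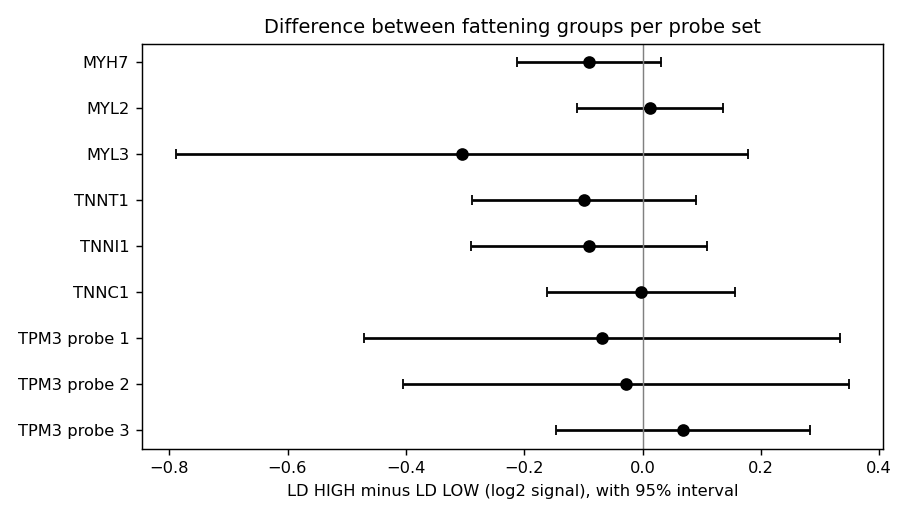
Difference LD HIGH minus LD LOW in log2 signal (x axis) for each member probe set (rows), with points for the limma estimate and bars for its 95% interval. Every interval includes 0, and that of *MYL3* is the widest, from -0.79 to 0.18.

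Of the fat cell markers 2 had larger differences between the groups than any slow fibre probe set, without passing the adjusted threshold. *FABP4*, the fatty acid carrier of adipocytes, had a mean of 10.88 ± 0.31 in LD HIGH and of 10.30 ± 0.37 in LD LOW, a difference of 0.58 (SE 0.15, unadjusted p = 0.0010, adjusted p = 0.993 in limma). *ADIPOQ*, the adipocyte hormone adiponectin, had a mean of 5.19 ± 1.28 in LD HIGH and of 3.80 ± 1.34 in LD LOW, a difference of 1.39 (SE 0.56, unadjusted p = 0.022, adjusted p = 0.993 in limma). Its signal was low and exceeded the tag controls on 18 of the 19 arrays. Of the 7 measured adipocyte markers 5 were higher and 2 lower in LD HIGH, and *LEP* exceeded the tag controls on 0 arrays. The mean signal of the list per pig ran from 5.84 to 6.58 in LD HIGH and from 5.54 to 6.58 in LD LOW. The part of fat cells in the differences of the slow fibre genes was not tested.

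Apart from *TPM3*, the slow fibre genes tended to be high or low in the same pigs. With each gene taken by its brightest probe set and each value centred on the mean of its fattening group, the 21 pairs of the 7 genes had Pearson's r from 0.28 to 0.82 with a median of 0.67. The 15 pairs that leave *TPM3* out had r from 0.60 to 0.82 with a median of 0.73, and the 6 pairs with *TPM3* had r from 0.28 to 0.62 with a median of 0.33. The closest pair was *TNNT1* with *TNNI1* (r = 0.82), followed by *MYL2* with *TNNI1* (0.78) and *MYH7* with *TNNI1* (0.78). These r describe 19 arrays that the genes share, and no p is given for them.

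**Figure D3:**
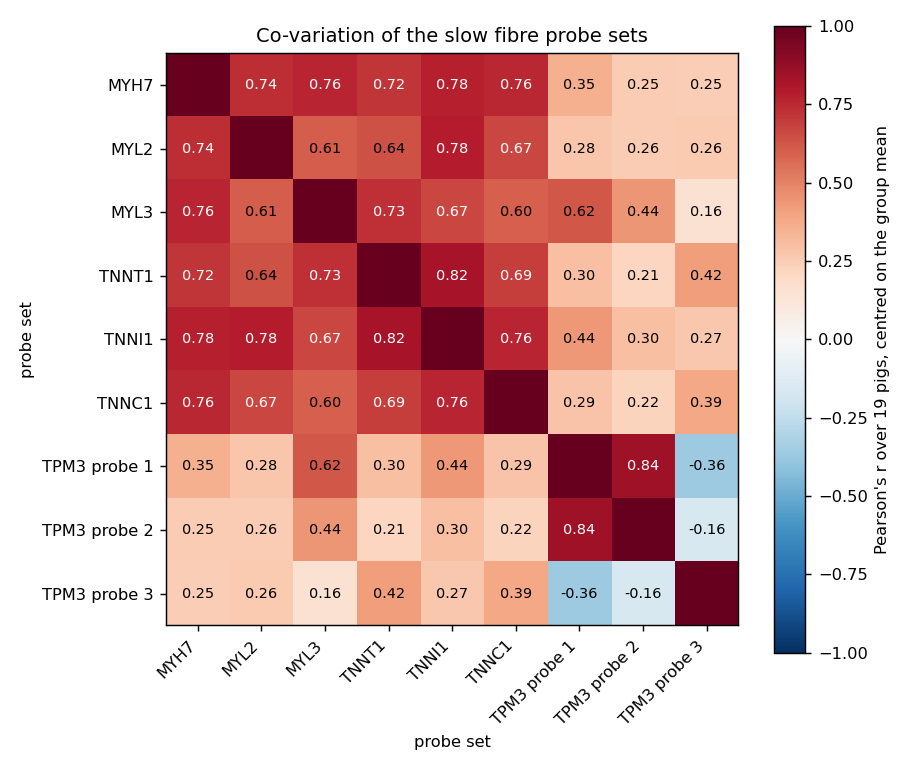
Pearson's r between member probe sets over the 19 pigs, with values centred on the mean of LD HIGH or LD LOW (colour and number, scale from -1 to 1). *MYH7*, *MYL2*, *MYL3*, *TNNT1*, *TNNI1* and *TNNC1* form a block of r from 0.60 to 0.82, and the *TPM3* probe sets stand outside it apart from *TPM3* probe set 1 with *MYL3* (0.62).

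Set against *MYH7* over the 19 pigs without centring, *TNNI1* had r = 0.78 (permutation p = 7e-05, 100000 resamples, two-sided) and Spearman's rho = 0.79 (p = 8e-05). *MYL3* had r = 0.78 (permutation p = 0.00012) and rho = 0.83 (p = 2e-05), and *TNNT1* had r = 0.74 (p = 0.0003) and rho = 0.80 (p = 7e-05). *TNNC1* followed with r = 0.71 (permutation p = 0.00069) and rho = 0.69 (p = 0.0014), and *MYL2* with r = 0.67 (p = 0.0020) and rho = 0.59 (p = 0.0088). *TPM3* probe set 1 had r = 0.36 (permutation p = 0.13) and rho = 0.46 (p = 0.0483). These are the 6 relations with *MYH7*, and the p-values are raw.

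Leaving out LD LOW pigs 1550 and 2172, which were farthest from the *MYH7* median, left 17 pigs. The r with *MYH7* was then 0.78 for *MYL3* (permutation p = 0.0003), 0.74 for *TNNI1* (p = 0.00079), 0.74 for *TNNT1* (p = 0.00054) and 0.56 for *TNNC1* (p = 0.0189). For *MYL2* it fell to 0.40 (permutation p = 0.115), so the relation of *MYL2* with *MYH7* was weaker without these 2 pigs and no longer had a p under 0.05. *TPM3* probe set 1 had 0.29 (permutation p = 0.267).

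Within the groups the r with *MYH7* was positive for all 6 genes. *TNNI1* had 0.81 in LD HIGH and 0.94 in LD LOW, *TNNT1* had 0.68 in LD HIGH and 0.84 in LD LOW, and *MYL3* had 0.86 in LD HIGH and 0.73 in LD LOW. *MYL2* had 0.53 in LD HIGH and 0.87 in LD LOW, *TNNC1* had 0.57 in LD HIGH and 0.88 in LD LOW, and *TPM3* probe set 1 had 0.52 in LD HIGH and 0.26 in LD LOW. Whether r differed between the groups was not tested.

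**Figure D4:**
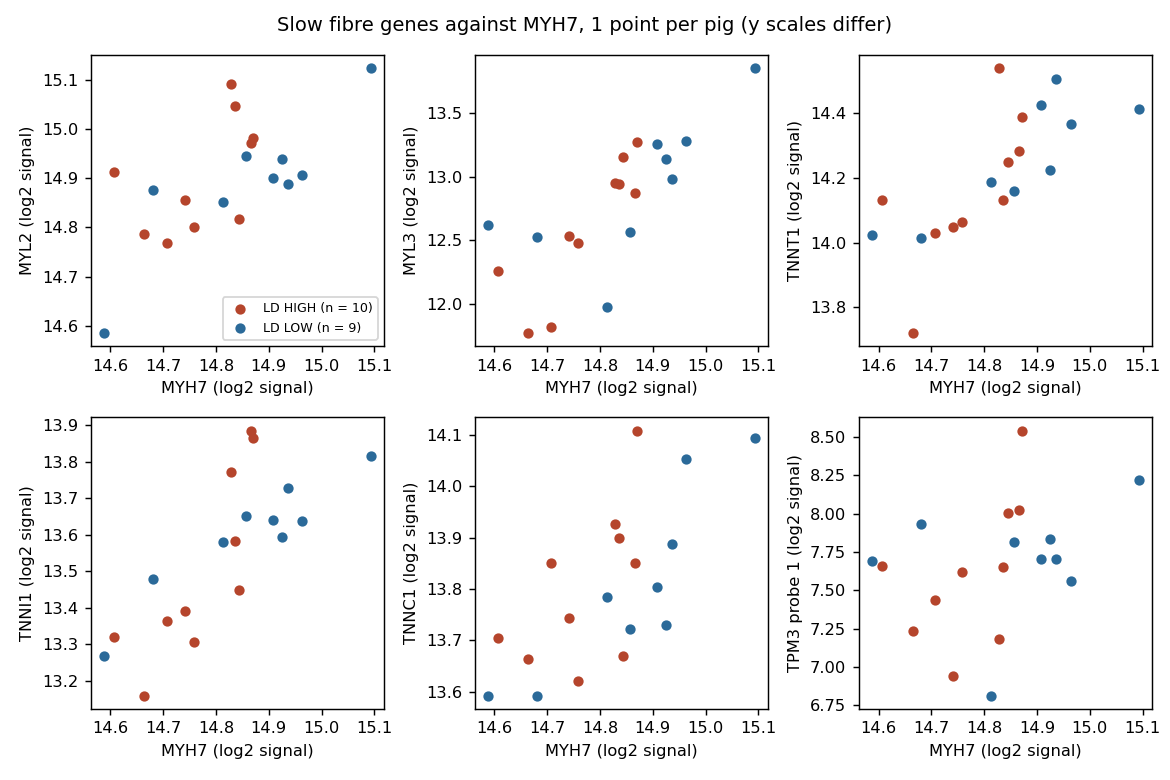
Log2 signal of each other slow fibre gene (y axes, own scale per panel) against that of *MYH7* (x axis), with 1 point per pig, LD HIGH in red and LD LOW in blue. *MYL3*, *TNNT1*, *TNNI1* and *TNNC1* are higher where *MYH7* is higher in both groups, while the points of *TPM3* probe set 1 scatter (r = 0.36).

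The same relation was fitted for every probe set in limma, with the *MYH7* signal and the fattening group as terms. After adjustment over the 23934 other probe sets 0 passed as higher with *MYH7* (0%) and 0 as lower, the smallest adjusted p being 0.215, so no member passed either. *TNNI1* and *MYL3* had an adjusted p of 0.215, *TNNC1* of 0.332, *TNNT1* of 0.414 and *MYL2* of 0.436. At an unadjusted p under 0.05 the count of probe sets higher with *MYH7* was 5 of the 8 other member probe sets and 536 of all 23934 (2.24%). Ordered by r with the group accounted for, *TNNI1* stood 6th of 23934 with 0.78, *MYL3* 10th with 0.76, *TNNC1* 11th with 0.76, *MYL2* 12th with 0.74 and *TNNT1* 13th with 0.72. The 3 *TPM3* probe sets stood at places 1337, 3372 and 3583. The median r over all probe sets was 0.10, and over the 384 probe sets with a mean signal above 12 it was 0.051.

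With *TNNI1* in place of *MYH7*, *TNNT1* stood 1st of 23934, *MYL2* 2nd, *MYH7* 3rd, *TNNC1* 5th and *MYL3* 20th, and again 0 probe sets passed after adjustment. *TNNT1* had the smallest adjusted p of these 5 genes, 0.599 in limma. The members' places in the order are given as a description, since the pairs share their arrays.

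Slopes on *MYH7* are given per probe set, and differences between slopes were not tested. Per unit of *MYH7* the log2 signal of *MYL3* moved by 3.29 units (95% interval 1.89 to 4.69), that of *TNNI1* by 1.33 (0.74 to 1.92), *TNNT1* by 1.18 (0.57 to 1.78), *TNNC1* by 1.0 (0.51 to 1.5) and *MYL2* by 0.75 (0.35 to 1.15). From the lowest to the highest pig *MYL3* spanned 2.08 log2 units, a 4.23-fold range of signal, where *MYH7* spanned 1.42-fold, *MYL2* 1.45-fold, *TNNC1* 1.43-fold, *TNNI1* 1.65-fold and *TNNT1* 1.76-fold. On these arrays bright probe sets varied less: the median SD over pigs was 0.264 for probe sets with a mean of 12 to 13, 0.134 for those of 14 to 15 and 0.0887 for those of 15 to 17. The SD of *MYL3* was 0.55, above the upper quartile of 0.349 for probe sets of its level. *MYH7* and *MYL2*, with SDs of 0.13 and 0.12, lay between the quartiles of 0.114 and 0.193 at theirs. The part of signal level in the slopes was not tested.

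A few pigs of both groups held the highest and lowest values. LD LOW pig 1550 was among the 5 highest of the 19 for all 6 genes other than *TPM3*, with the highest signal of all pigs for *MYH7* (15.09), *MYL2* (15.12) and *MYL3* (13.85). LD HIGH pig 1533 was among the 5 highest for 5 of the 6 genes and LD HIGH pig 1540 for 4. At the low end LD HIGH pig 8697 was among the 5 lowest for all 6 genes, with the lowest *MYL3* (11.77), *TNNT1* (13.72) and *TNNI1* (13.16), and LD HIGH pig 1903 and LD LOW pig 2172 were among them for 5. Pigs with high and with low slow fibre signals were thus found in each group.

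*TPM3* followed a different pattern among the pigs. Probe sets 1 and 2 correlated at r = 0.84 (group centred), and with probe set 1 as the reference in limma probe set 2 was 4th of 23934 and passed (adjusted p = 0.0287), where 32 probe sets in all passed as higher (0.134%) and 65 in either direction (0.272%). These probe sets share a gene and may share probes. Of the other slow fibre genes *MYL3* was nearest to probe set 1, with r = 0.62 (adjusted p = 0.141), and *MYH7*, *MYL2*, *TNNT1*, *TNNI1* and *TNNC1* had r from 0.28 to 0.44 and did not pass. Probe set 3 had r = -0.36 with probe set 1 and -0.16 with probe set 2.

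Macrophage, smooth muscle and endothelial markers tended to be higher with *TPM3* probe set 1. An RNA measure moved with probe sets 1 and 3 in opposite directions. The RNA measure was the log2 signal of the 3' end less that of the 5' end, as the mean of 3 control transcripts. A larger value can reflect more degraded RNA, and no other measure of RNA quality was used. Its lowest, median and highest values were 0.863, 1.04 and 1.2 in LD HIGH, against 0.770, 1.08 and 1.61 in LD LOW. Probe set 1 had r = -0.52 with it (permutation p = 0.0241, rho = -0.42, p = 0.0705), and probe set 3 had r = 0.57 (permutation p = 0.0180, rho = 0.42, p = 0.0764). Without the 2 pigs farthest from the median of this measure r was -0.28 for probe set 1 and 0.34 for probe set 3, so both relations were weaker without those pigs. Within the groups probe set 1 had r = -0.25 in LD HIGH and -0.82 in LD LOW, and probe set 3 had 0.34 in LD HIGH and 0.74 in LD LOW. LD LOW pig 1444 had the highest RNA measure of all pigs (1.61) and the lowest probe set 1 (6.81). LD LOW pig 2157 had the lowest RNA measure (0.770) and the lowest probe set 3 (2.65). The r within LD LOW was not computed without these pigs. The other 7 member probe sets had r from -0.39 to -0.064 in these 9 relations, with raw permutation p from 0.102 to 0.796. Among these 7, *TPM3* probe set 2 had r = -0.12 with the RNA measure (permutation p = 0.619, rho = -0.023). Its r was 0.093 without the 2 farthest pigs.

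All 6 measured macrophage markers were positively related to *TPM3* probe set 1, with r from 0.36 to 0.83 and a median of 0.55, beside a median of 0.18 over all probe sets. *C1QC*, a subunit of complement C1q made by macrophages, had 0.83. With *MYH7* the same 6 markers had r from -0.089 to 0.22 with a median of 0.055. Smooth muscle markers had a median r of 0.51 with probe set 1 (6 of 7 positive, *ACTA2* 0.80) and of 0.24 with *MYH7*, and endothelial markers had 0.45 and 0.33. With probe set 1 fibroblast markers had a median r of 0.43 (3 of 4 positive) and adipocyte markers of 0.25 (5 of 7). General skeletal muscle markers had a median of -0.33 (2 of 8 positive). Of the 2 measured blood cell markers *HBB* had -0.78, and *ALAS2*, above the tag controls on 1 array, had 0.48. The mean signal of the macrophage list per pig ran from 4.26 to 5.67 in LD HIGH and from 4.12 to 5.78 in LD LOW, and 4 of its 6 genes exceeded the tag controls on all 19 arrays. That of the smooth muscle list ran from 8.44 to 9.51 in LD HIGH and from 8.03 to 9.24 in LD LOW. The part of these cells and of RNA quality in the *TPM3* signal was not tested.

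By the likeness rule used for *MYH7*, applied to *TPM3* after its values were seen, the 5 genes nearest to probe set 1 were *TIMP1*, an inhibitor of matrix proteases (r = 0.87), *RSF1* (0.84), *CORO1B*, a coronin of the actin cortex (0.83), *C1QC* (0.83) and *PCBP2*, an RNA-binding protein (0.82). Their r with *MYH7* ran from 0.22 for *C1QC* to 0.49 for *RSF1*.

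Other genes of the slow fibre programme were described from a list of 20, of which 13 had a probe set. Between LD HIGH and LD LOW 0 of the 13 passed, 7 were higher and 6 lower in LD HIGH, and the median difference was 0.018. Their r with *MYH7* had a median of 0.26, beside 0.10 over all probe sets, and 8 of 13 were positive. *ATP2A2*, the calcium pump of the slow fibre's sarcoplasmic reticulum, was nearest to *MYH7* with r = 0.80 (0.76 in LD HIGH and 0.83 in LD LOW). *HSPB6*, a small heat shock protein of slow and cardiac muscle, had r = 0.71 (0.55 in LD HIGH and 0.89 in LD LOW). *LDHB*, the lactate dehydrogenase subunit of oxidative tissue, had r = 0.48 (0.23 in LD HIGH and 0.84 in LD LOW). *SLN*, the small peptide sarcolipin that inhibits the calcium pump, had r = -0.50 (-0.72 in LD HIGH and -0.39 in LD LOW). The slow fibre list thus held genes on both sides of 0, and 0 of the 13 passed the adjusted threshold for the relation with *MYH7* in limma.

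The fast fibre genes had no common direction with *MYH7*. Of a list of 16 fast contractile genes 10 had a probe set, and their r with *MYH7* ran from -0.45 to 0.38 with a median of 0.047. *TNNC2*, the fast calcium-binding troponin, had r = -0.45 and *MYL1*, a fast essential light chain, had r = -0.21. *ATP2A1*, the calcium pump of fast fibres, had r = 0.38 and *MYLPF*, the fast regulatory light chain, had r = 0.20. *MYH2*, the fast IIa myosin heavy chain, had r = 0.029, with a mean of 15.90 in LD HIGH and 15.91 in LD LOW. The fast list was bright, with a mean signal per pig of 14.87 to 15.11 in LD HIGH and 15.01 to 15.17 in LD LOW, and 9 of its 10 probe sets had an SD of 0.15 or less.

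Between LD HIGH and LD LOW 0 of the 10 fast genes passed, 4 were higher and 6 lower in LD HIGH, and the median difference was -0.019. *ATP2A1* had the largest, 13.19 ± 0.44 in LD HIGH and 13.67 ± 0.18 in LD LOW, a difference of -0.48 (SE 0.15, unadjusted p = 0.0042, adjusted p = 0.993 in limma).

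Regulators of fibre type lay on both sides of 0 in their relation with *MYH7*. Of 36 listed 17 had a probe set, with r with *MYH7* from -0.31 to 0.37 and a median of 0.14. *TEAD4*, a transcription factor of muscle genes, had r = 0.37, *PPP3CA*, a catalytic subunit of the phosphatase calcineurin, had 0.36, *MEF2D* had 0.30 and *MYF6*, a myogenic factor of mature fibres, had -0.31. *PPARGC1A*, the coactivator of mitochondrial genes that raises slow fibre content in mice, had r = 0.23 and had a mean of 10.26 in LD HIGH and of 9.58 in LD LOW, a difference of 0.68 (adjusted p = 0.993 in limma). Of the 17 regulators 0 passed between LD HIGH and LD LOW, with 9 higher and 8 lower in LD HIGH.

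**Figure D5:**
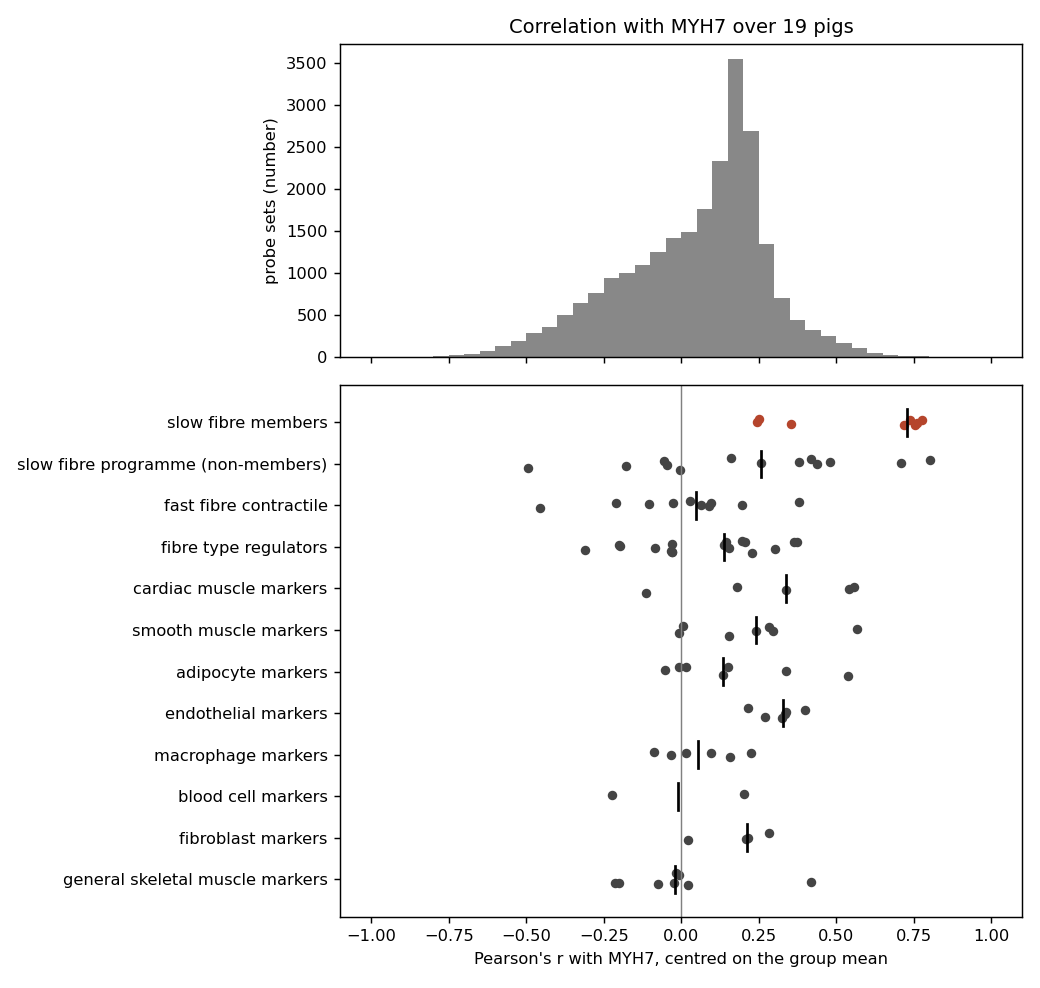
Pearson's r with *MYH7* over 19 pigs, centred on the group mean (x axis), as a histogram of the 23934 other probe sets (top, y axis in numbers of probe sets) and as 1 point per gene for each list (bottom, member probe sets in red, medians as black bars). Of the 8 other member probe sets 5 lie between 0.72 and 0.78 and the 3 of *TPM3* between 0.25 and 0.35, while the fast fibre list has a median of 0.047.

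Over the 7234 probe sets with 1 symbol that exceeded the tag controls on all arrays, the 10 non-member genes most like *MYH7* had r from 0.71 to 0.89. *NDUFA4* (r = 0.83) and *COX5B* (0.76) encode subunits of the respiratory chain, *SLC25A11* (0.72) the mitochondrial carrier of oxoglutarate and malate, and *TXN2* (0.71) the mitochondrial thioredoxin. *VEGFB* (0.79), a growth factor of the vascular endothelial family, and *ENG* (0.78), the endothelial co-receptor endoglin, were among them, with *ATP2A2*, *HSPB6* and *MPP1* (0.71), a membrane protein of red cells and other cells. *GPAM*, the first enzyme of glycerolipid synthesis, had the highest r (0.89) but a mean of 3.03 and an SD of 0.084 over 19 pigs, close to background. The r of *NDUFA4* was 0.66 in LD HIGH and 0.89 in LD LOW, and that of *COX5B* was 0.50 in LD HIGH and 0.88 in LD LOW.

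The 5 genes with the lowest r were *SH3PXD2A*, a scaffold of podosomes (-0.79), *LOC100522498* (-0.77), *SRSF6*, a splicing factor (-0.76), *GADD45A*, a stress response gene (-0.76), and *FTSJ3*, a ribosome assembly factor (-0.75). *GADD45A* was the most variable of these, with a mean of 9.56 and an SD of 1.13 over 19 pigs. None of these 15 genes passed the adjusted threshold in limma, their smallest adjusted p being 0.215.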

How the data were processed

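The authors deposited 1 log2 signal per probe set and array, made with GCRMA per the labels, which corrects the background, normalizes the arrays and summarises the probes (its version is not stated). A second deposited table held 4268 of these probe sets, 1 of them a member, with identical log2 values. Of 24114 probe sets, 179 controls (spike-in, tag and reporter probe sets) were left out, and all other 23935 were tested whatever their level. The platform annotation named the genes (10069 probe sets with 1 symbol, 198 with several, 13668 with none), and their positions came from the RefSeq table of Sscrofa11.1.

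LD HIGH (10 pigs) and LD LOW (9 pigs), grouped by the labels, were compared in R 4.3.3 by limma 3.58.1 with the prior variance following the mean signal, with Benjamini-Hochberg adjustment and a threshold of 0.05. The same fit with the *MYH7* signal and the group as terms gave the relation of every probe set with *MYH7*. Both fits were also run on simulated data with noise independent between probe sets, so error rates on these arrays were not measured. Pearson's and Spearman's correlations over pigs used 100000 permutations (two-sided, smallest possible p 1e-05). As *MB* had no probe set, 7 genes and 21 pairs were described. A list gene was read by its brightest probe set, with up to 4 genes named per list by the size of r with *MYH7* and others named for their role or their difference. *MYH2*, *PPARGC1A* and the markers beside the group comparison and *TPM3* were chosen after their values were seen. The members and lists were chosen with earlier results of these data known. The number of arrays limits the precision.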

Additional observations from a re-analysis of the deposited data

Results flagged for a closer look

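*TPM3* probe set 1 was far lower in LD LOW pig 1444, at 6.81, than in the nearest LD LOW pig at 7.56, a gap of 0.533 of the range of the 9 LD LOW pigs. *TPM3* probe set 3 was likewise far lower in LD LOW pig 2157, at 2.65, than in the nearest LD LOW pig at 3.10, a gap of 0.517 of the range. Both gaps are past the 95% critical value of Dixon's test for 9 pigs. Chance alone puts about 1 group in 20 past it, and 18 groups were looked at (9 probe sets in LD HIGH and in LD LOW). Pig 1444 also had the highest 3' minus 5' signal of all pigs (1.61) and pig 2157 the lowest (0.770). No other member probe set had a pig so far from its group.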

How the results depend on the processing

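Between LD HIGH and LD LOW 0 probe sets passed under 25 of 26 alternatives, including each pig left out (0 to 0). Array quality weights gave 5 (smallest adjusted p 0.0426), none a member: *CCNL2* and 4 without a symbol. The cause was not tested. *MYH7*, *MYL3*, *TNNT1* and *TNNI1* stayed lower in LD HIGH under every alternative run, and no member passed the adjusted threshold under any. Over these *MYH7* ran from -0.12 to -0.057 (quantile normalization), *MYL3* from -0.49 (array quality weights) to -0.19 (without LD LOW pig 1550), *TNNT1* from -0.14 to -0.050 and *TNNI1* from -0.13 to -0.052, the smallest of both without LD HIGH pig 8697. Array quality weights moved *TPM3* probe set 1 to -0.25 and probe set 2 to -0.24. Near-zero differences changed sign: *TNNC1* was 0.0070 with array quality weights, and with single pigs left out *TNNC1* ran from -0.037 to 0.033, *MYL2* from -0.026 to 0.042, *TPM3* probe set 1 from -0.18 to 0.0080, probe set 2 from -0.098 to 0.075 and probe set 3 from -0.00061 to 0.11. For the relation with *MYH7*, 0 passed under 24 of 27 alternatives. With single pigs left out the count ran from 0 to 2, with 2 unnamed probe sets without LD LOW pig 1550 and *ZDHHC20* without LD HIGH pig 1612. Each of these probe sets was lower where *MYH7* was higher. *TPM3* probe set 1 in place of *MYH7*, added after seeing the data, gave 65, which is another question rather than another setting. The median r of the gene pairs (0.67) ran from 0.61 to 0.73 over 29 alternatives, 0.73 being the value without *TPM3*, also added after seeing the data. No second *MYH7* probe set exists in the annotation used, so that alternative was not run. No paired analysis was possible because the numbers of the pigs pair no animals across groups. Probe sets near the tag controls, *TPM3* probe set 3 among them, say little about expression.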
